A study of Mus musculus with 27 samples.

Results

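The endothelial cells described here were 191 of 28373 cells that passed quality limits in 2 single-cell RNA libraries of mouse back skin, 1 library for each of 2 mice. They were chosen by expression: a kept cell (at least 500 genes, at least 1000 unique molecular identifiers, or UMIs, and under 10% mitochondrial UMIs) counted as endothelial when Pecam1, Cdh5, Egfl7 and Kdr together had at least 4 UMIs from at least 2 of these 4 genes, Pecam1 had at least 1, and Krt5 plus Krt14 made up under 0.1% of its UMIs. Both mice were wild-type, with no treatment recorded, and the skin was taken at about postnatal day 32, in the anagen stage that the labels call AnaVI, when hair follicles are growing. The series holds 27 samples, most of them cultured hair follicle stem cells, and the 2 skin libraries were made as an in vivo reference for those cultures. The skin was digested with collagenase and then trypsin, and cells were sorted as CD45-, CD31-, CD140a- and CD117-. CD31 is the protein of Pecam1, so the sort was set against the very cells described here and its effect on their number and on which of them were captured cannot be told apart from their frequency in skin. No condition separates the 2 mice, and values are given for each without a test between them.

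Endothelial cells line blood and lymphatic vessels. They hold together through VE-cadherin junctions, respond to VEGF through Kdr and Flt1, and differ along the vascular tree: arterial cells use Notch signalling, capillary cells exchange lipids and other nutrients with the tissue, venules carry the selectins that capture leukocytes, and lymphatic vessels depend on the transcription factor Prox1 and drain fluid and immune cells. In skin the vessels run close to hair follicles, and endothelial cells are known sources of secreted factors such as CXCL12 and PDGF-B that act on neighbouring cells.

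Mouse 1 gave 77 endothelial cells among 14458 kept cells, or 0.533% (exact 95% binomial interval 0.421 to 0.665), and mouse 2 gave 114 among 13915, or 0.819% (0.676 to 0.983). These intervals cover counting error only. Endothelial cells were shallower than the kept cells as a whole, with a median of 4522 UMIs in mouse 1 and 6278 in mouse 2 against 8869 and 10594, and their summed UMIs came to 526186 and 930022. The 2 libraries held 16521 and 16068 barcodes with 145318618 and 167258677 UMIs, and they shared 62 of all these barcodes, 0 of them endothelial. Levels are given as CPM, a gene's UMIs summed over the cells of a mouse and scaled to 1000000 UMIs in all. UMIs were counted at the 3′ end of transcripts, so a level was not divided by transcript length.

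The letters AGGAAG are a longer form of GGAA, the core that ETS-family transcription factors such as Erg and Fli1 are known to bind. They were searched on both strands in the RefSeq promoters (GRCm38.p6, 250 bases before to 50 bases after the start) of the 4 selection genes and of the 15 genes that led the population (below), because many endothelial genes carry ETS sites. A promoter was held for 14 of the 19 genes, and 10 of the 14 contained the letters in at least 1 promoter, against 38.4% of 27025 genes in the same table. Counted by promoter, 11 of the 16 contained them, against 35.4% of 32851. No promoter was printed for Pecam1, Cdh5, Gpihbp1, Sox17 or Ptprb. The promoters of 2 selection genes, Egfl7 and Kdr, and of 2 leading genes, Selp and Emcn, are shown because they span the range found, from 3 matches to 0. The table holds 3 promoters of Egfl7, with 3, 2 and 0 matches, and the one with 3 is shown. Each is written 5′ to 3′ on the strand of the gene, and the capitals mark AGGAAG or, where the letters lie on the opposite strand, CTTCCT.
Egfl7, chr2:26580833-26581132, plus strand: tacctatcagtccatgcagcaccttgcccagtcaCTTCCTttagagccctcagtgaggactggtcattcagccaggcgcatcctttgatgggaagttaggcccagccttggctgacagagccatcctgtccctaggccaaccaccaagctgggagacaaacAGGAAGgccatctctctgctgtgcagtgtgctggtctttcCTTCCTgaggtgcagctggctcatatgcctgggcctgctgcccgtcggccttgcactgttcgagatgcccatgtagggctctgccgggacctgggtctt
Kdr, chr5:75978406-75978705, minus strand: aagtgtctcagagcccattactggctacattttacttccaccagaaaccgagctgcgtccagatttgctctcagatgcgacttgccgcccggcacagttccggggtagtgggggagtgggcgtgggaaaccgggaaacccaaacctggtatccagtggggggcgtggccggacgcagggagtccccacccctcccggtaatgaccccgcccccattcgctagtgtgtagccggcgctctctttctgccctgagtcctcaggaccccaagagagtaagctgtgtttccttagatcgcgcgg
Selp, chr1:164115014-164115313, plus strand: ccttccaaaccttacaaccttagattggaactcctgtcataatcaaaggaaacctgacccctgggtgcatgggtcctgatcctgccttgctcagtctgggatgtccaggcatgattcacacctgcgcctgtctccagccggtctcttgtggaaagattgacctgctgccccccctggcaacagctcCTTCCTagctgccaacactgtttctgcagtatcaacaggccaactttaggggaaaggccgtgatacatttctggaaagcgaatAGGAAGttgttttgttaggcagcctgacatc
Emcn, chr3:137340828-137341127, plus strand: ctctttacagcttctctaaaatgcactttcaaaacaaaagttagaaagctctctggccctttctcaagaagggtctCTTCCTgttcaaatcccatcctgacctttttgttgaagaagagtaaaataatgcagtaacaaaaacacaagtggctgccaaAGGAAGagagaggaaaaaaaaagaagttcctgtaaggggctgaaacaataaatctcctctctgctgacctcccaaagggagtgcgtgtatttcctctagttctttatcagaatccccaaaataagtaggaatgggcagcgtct
This Egfl7 promoter held the letters at -216, -89 and -49 (the start base is 0), Selp at -64 and 19, and Emcn at -174 and -93. Kdr held no AGGAAG in this window, but the shorter core GGAA does occur in it and was not counted for any gene. A match is a run of letters and no binding was measured here.

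The selection genes themselves describe how the cells were picked and carry no test. Pecam1 (chr11:106654217-106750628, minus strand) stood at 701 CPM in the summed endothelial cells of mouse 1 and 732 in mouse 2, and at 2.04 and 3.02 in all other kept cells. Cdh5, or VE-cadherin (chr8:104101625-104144511, plus strand), stood at 523 and 468 against 0.871 and 0.954. Egfl7, a secreted endothelial factor (chr2:26580014-26593120, plus strand), stood at 561 and 589 against 10.7 and 7.68, so it was the least exclusive of the 4. Kdr, the main VEGF receptor (chr5:75932827-75978458, minus strand), stood at 437 and 455 against 7.98 and 4.87. Coordinates are those of GENCODE release M21 on GRCm38. All 4 genes were seen in 116 of the 191 cells, 3 in 56 and 2 in 19.

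The threshold did not fall in a gap: among low-keratin cells with a Pecam1 UMI, the number of cells fell steadily as the sum of the 4 genes rose. A Pecam1 UMI was found in 816 kept cells, and most of those outside the selection, 428 cells with low keratin, had that UMI and no other from the 4 genes. Just outside, 27 cells had a sum of 3 UMIs. Just inside, 13 of the 21 cells with a sum of 4 and 11 of the 16 with a sum of 5 were members, while 68 of the 69 cells with 10 to 19 and all 31 cells with 30 or more were members. The cells just inside thus followed on those just outside without a break, and the limit of 4 UMIs is a choice.

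When all 28373 kept cells were clustered on expression, 181 of the 191 endothelial cells (72 in mouse 1 and 109 in mouse 2) fell into 1 of 33 clusters, which held 228 cells. The 10 members outside it all had only 4 or 5 UMIs of the selection genes. Of the 47 cells of that cluster that were not members, 35 had no Pecam1 UMI. Most marker lists of other skin cell types took fewer UMIs in the summed endothelial cells than in all other kept cells, and 1 list did not. The 12 keratinocyte genes took 0.132% and 0.0703% of UMIs in the 2 mice, below the 0.354% and 0.263% in all other cells, and Krt1 was at 0. The 11 immune genes took 0.00418% and 0.00677% against 0.0129% and 0.0238%, with Cd3e and Cd3g at 0, and the Schwann, melanocyte, muscle and red blood cell lists were likewise below their share in the other cells in both mice. The 11 mural and sheath genes took 0.054% and 0.0531%, slightly more than the 0.0436% and 0.0525% in all other cells. The 8 fibroblast genes took 0.886% and 1.58% against 2.42% and 3.41%, but this exceeded the 0.291% and 0.358% seen in Krt5/Krt14 cells, where collagen RNA should be absent.

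The 191 cells, clustered on their own, split into 6 subclusters, of which 3 could be named from marker lists and 3 could not. A subcluster of 29 cells was led by genes that included hair follicle and cell cycle genes (Krt25, Lef1, Stmn1, Top2a). Another of 23 cells was led by fibroblast genes (Clec3b, Mfap5, Col3a1, Ogn). Their median depths, 11435 and 15555 UMIs, were above those of the other 4 subclusters, which ran from 3696 to 6091, and they held 6 and 3 of the 10 endothelial cells that the doublet caller Scrublet marked, all 10 of them from mouse 1. They also held the 10 members that lay outside the endothelial cluster, 7 in the former and 3 in the latter. The 29 cells are called the hair-matrix-gene subcluster below, a label that names no cell type. Krt25 was seen in 11 of its 14 cells in mouse 1 and in 7 of 15 in mouse 2. Its cells held a median of 13 selection-gene UMIs. The 23 cells drew 3.7% and 4.3% of their UMIs from the 8 fibroblast genes in mice 1 and 2. These 52 cells were kept because the rule admits them, but they held 48.1% of all endothelial UMIs. The comparisons below were therefore also fitted on the other 139 cells, 57 in mouse 1 and 82 in mouse 2, in which the 8 fibroblast genes took 0.417% and 0.63%. Levels are those of all 191 cells unless the 139 are named. Genes of other types were not gone from the 139 cells. The venous-like cells among them drew 0.0771% and 0.125% of UMIs from mural and sheath genes, the lymphatic-like cells of mouse 1 drew 1.69% from fibroblast genes, and 1 capillary-like cell drew 15.6% from these. Whether any of these cells are doublets was not tested beyond these values.

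**Figure D1:**
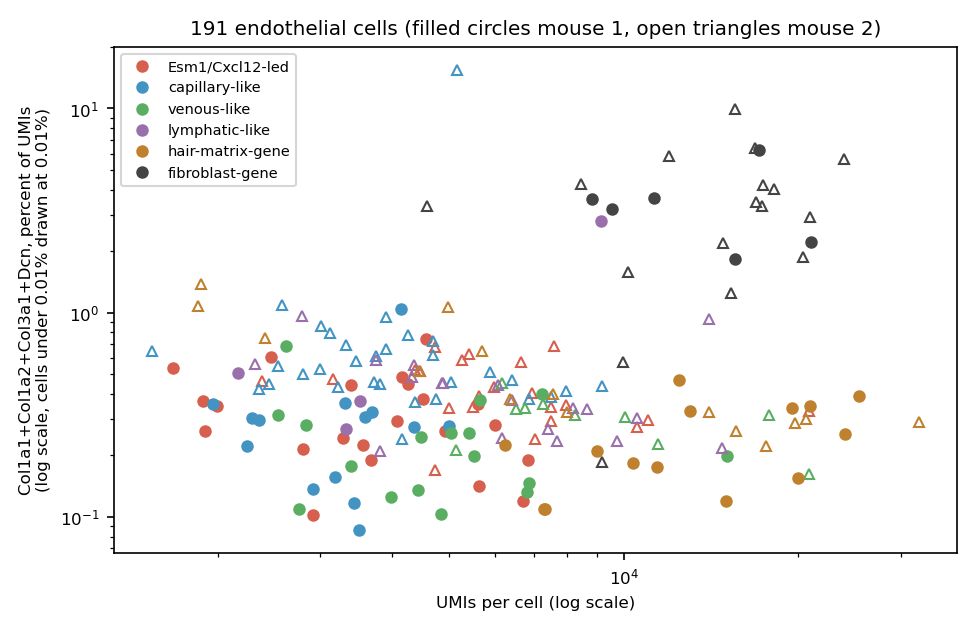
Each point is 1 of the 191 endothelial cells, with UMIs per cell on a log x axis and the percent of UMIs from Col1a1, Col1a2, Col3a1 and Dcn on a log y axis, coloured by subcluster (filled circles mouse 1, open triangles mouse 2). The fibroblast-gene subcluster (median 15555 UMIs) sits at the upper right, and the capillary-like cells (median 3696 UMIs) sit at the left, with 1 of them at 15.4%.

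Beyond the selection genes, many of the leading genes have a known endothelial use. The 15 genes with the largest ratio to all other kept cells, among those at 50 or more CPM in both mice, ran from Tmem252 (122 and 83.9 CPM against 0.0504 and 0.0442, a ratio of 2071 over both mice) to Emcn (325 and 389 against 0.374 and 0.676, a ratio of 684). Selp, the P-selectin that captures leukocytes (chr1:164115264-164150026, plus strand), followed at a ratio of 1962. Gpihbp1, which holds lipoprotein lipase on the capillary wall, had a ratio of 1259, and Cldn5, a tight junction claudin, 837. Adgrl4, an adhesion receptor, and Ptprb, a phosphatase of the VE-cadherin and Tie2 complex, were more abundant, at 568 and 541 and at 678 and 699 CPM. The ratios describe cells that were selected on related genes. In the 139 cells the levels named here were higher: Selp stood at 1018 and 534 instead of 475 and 361, Tmem252 at 212 and 124, Ptprb at 1214 and 1010 and Cldn5 at 316 and 414. Btnl9, C1qtnf9, Sox17, Rbp7, Ccl21a, Esm1, Ushbp1 and Myct1 completed the 15.

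Of these 15, Ccl21a, a chemokine of lymphatic vessels, differed most between the mice, at 253 CPM in mouse 1 and 848 in mouse 2. In mouse 1 its 133 UMIs lay in 2 cells of the fibroblast-gene subcluster, 114 of them in 1 cell, so that it stood at 0 and 1338 CPM in the other 139 cells. Ccl21a has near-identical copies in the mouse genome, so its counts are uncertain. The other 14 genes lay closer together, as the plot of leading genes shows.

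**Figure D2:**
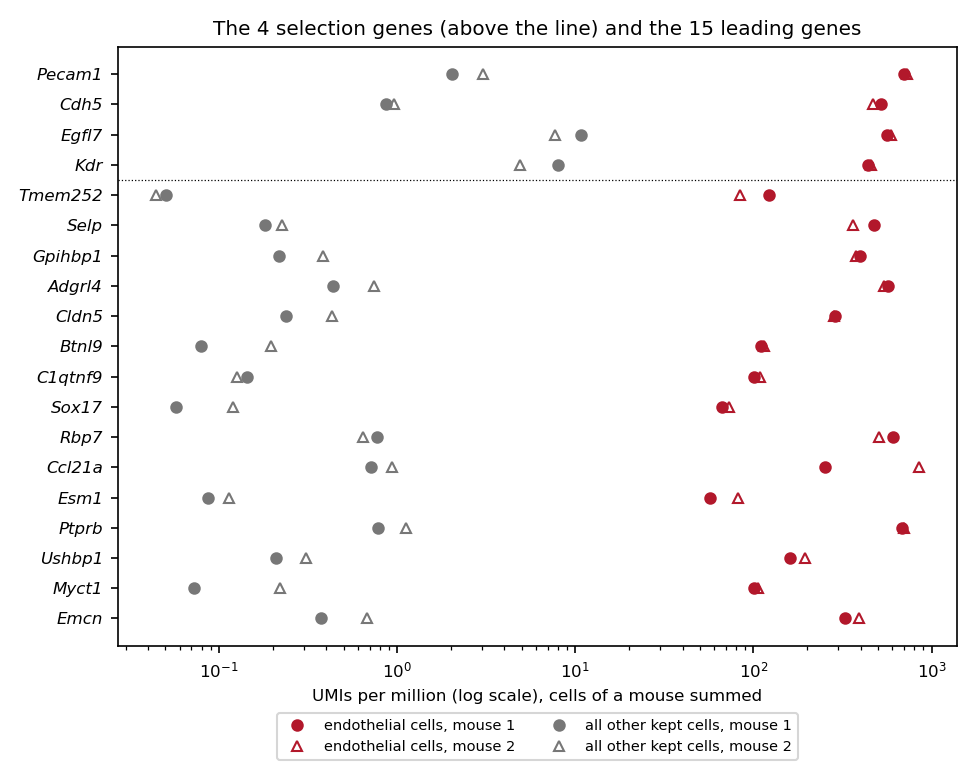
Level in CPM (log x axis) of the 4 selection genes, above the dotted line, and of the 15 leading genes, in summed endothelial cells (red) and all other kept cells (grey), filled circles for mouse 1 and open triangles for mouse 2. Ccl21a (253 and 848) shows the widest gap between the mice, while Cldn5 (287 and 283) and Pecam1 (701 and 732) nearly coincide.

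Rbp7, a cellular retinol-binding protein (chr4:149449687-149454978, minus strand), was among these leading genes and was not in the retinoid list described further on. It stood at 610 CPM in mouse 1 and 506 in mouse 2, against 0.77 and 0.644 in all other kept cells, and at 968 and 699 in the 139 cells. The level was not even across vessels: it was 1517 in the subcluster led by Esm1 and Cxcl12 and 1069 in capillary-like cells, but 205 in venous-like and 13.4 in lymphatic-like cells. Rbp7 was higher in endothelial cells than in the collagen-gene cells defined below by 10.09 ± 0.347 (log2 fold change and SE, adjusted p = 6.28e-07), and it had 0 UMIs in the Krt5/Krt14 cells, which makes it at least 565-fold higher there.

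The capillary-like subcluster held 45 cells, 14 from mouse 1 and 31 from mouse 2. It was led by Timp4 (563 CPM against 31.3 in the other endothelial cells), Gpihbp1 (1660 against 206), Car4 (368 against 16.4) and Tcf15 (429 against 28.2), and 9 genes of the capillary list were at least 2-fold higher in it. Its lipid genes were the highest of the 6 subclusters: Fabp4, a fatty acid carrier, reached 15238 and Cd36, a fatty acid transporter, 3648. Plvap, which forms the diaphragms of fenestrated and venous endothelium, was low at 189, next to 1635 in the Esm1/Cxcl12-led cells and 1696 in the venous-like cells. Such differences define the subclusters and are descriptions without a test.

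The venous-like subcluster held 27 cells, 17 from mouse 1 (22.1% of its endothelial cells, exact 95% interval 13.4 to 33) and 10 from mouse 2 (8.77%, 4.29 to 15.5). Selp was found in 27 of the 27 cells, at 2733 CPM against 52.9 in the other endothelial cells, and was at 0 in the capillary-like and Esm1/Cxcl12-led cells. Sele, the E-selectin, stood at 1822 against 35.5, Ackr1, a chemokine-binding receptor of venules, at 1143 against 41.9, and Vwf, the clotting factor carrier, at 1132 against 52.9. The shear-responsive factor Klf2 reached 1269 here and 329 in capillary-like cells.

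The lymphatic-like subcluster held 23 cells, and 19 of them came from mouse 2. Its leading genes were Mmrn1 (1940 CPM against 39.8), Ccl21a (4612 against 180), Reln (1242 against 35.2), Lyve1 (1262 against 37.5) and Prox1 (624 against 19.1), with Flt4, the receptor for lymphatic VEGF, at 604 against 32.1. In mouse 2, Prox1 was seen in 17 of the 19 cells and Lyve1 in 13. The 4 cells of mouse 1 were a weaker case: Prox1 was seen in 3 of them with 6 UMIs, while Lyve1, Ccl21a, Reln and Pdpn were at 0. Mouse 1 also had lymphatic genes in its 6 cells of the fibroblast-gene subcluster. There Lyve1 had 39 UMIs and Prox1 12, each in 1 cell, and Reln had 33 in 2 cells. When the cells of mouse 1 were clustered alone, no lymphatic-like subcluster was found, so the name rests on mouse 2. Blood vessel genes were low in the lymphatic-like cells, with Flt1 at 13.4, Plvap at 33.6 and Fabp4 at 60.4.

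The fourth subcluster without foreign genes held 44 cells, 22 from each mouse, and could not be named. Cxcl12, a chemokine that guides stem and immune cells, stood at 4029 CPM against 534 in the other endothelial cells and was even between the mice, at 4234 and 3910. Esm1, a proteoglycan of growing vessels, stood at 371 against 14.8 but was seen in 14 of the 44 cells. Arterial genes were present at modest levels, with the gap junction gene Gja4 at 160, Efnb2 at 333, Sema3g at 118 and Dll4 at 71.6, next to Plvap at 1635 and the basement membrane collagen Col4a1 at 1795. No subcluster qualified as arterial-like or as tip cells, in these or in any of the 5 other clusterings tried. Hbb-bs, a haemoglobin gene, led this subcluster by ratio (6296 against 116), and 1468 of its 1482 UMIs in mouse 2 came from 1 cell.

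**Figure D3:**
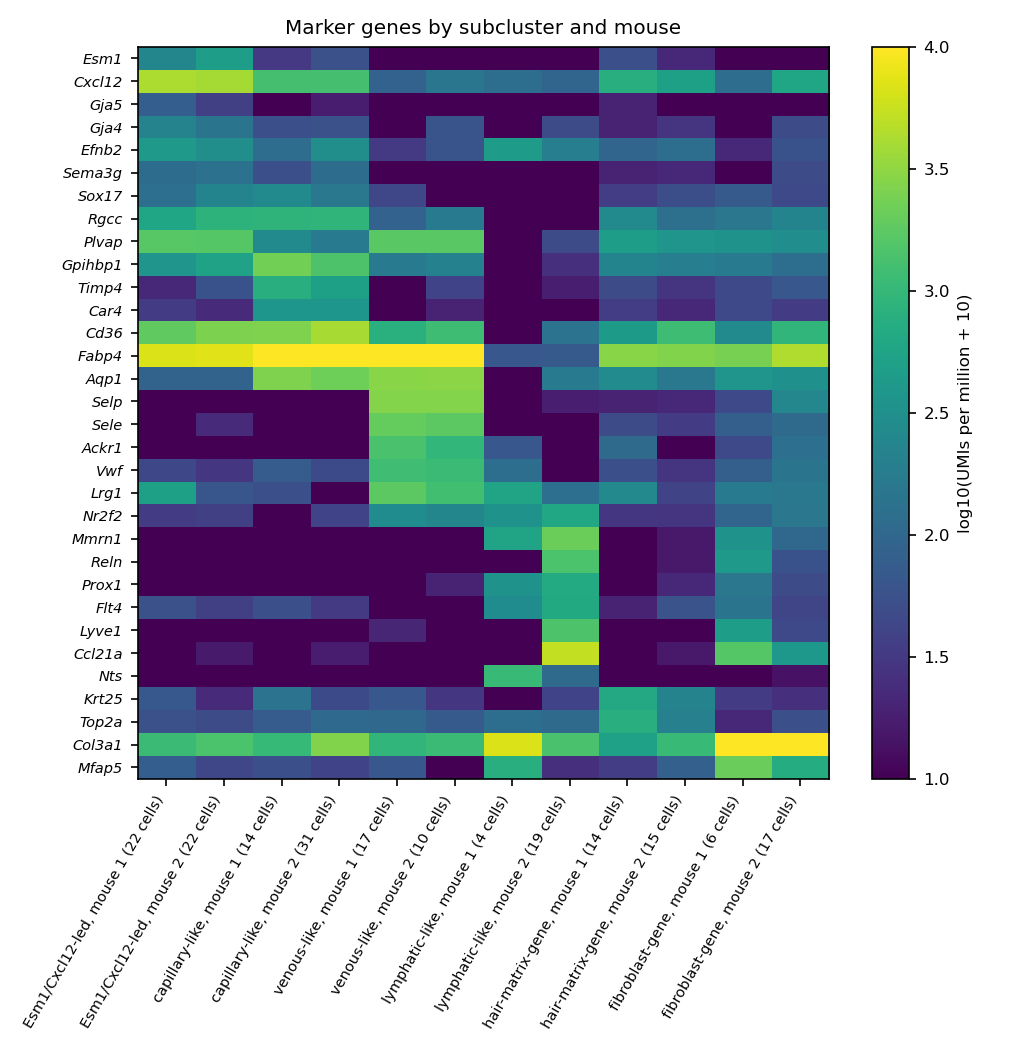
Levels of subtype and other-type marker genes for each subcluster and mouse, coloured by log10 of CPM plus 10. Selp and Ackr1 are bright in the venous-like columns, Gpihbp1 and Car4 in the capillary-like columns, and Prox1 and Mmrn1 in the lymphatic-like column of mouse 2 above that of mouse 1.

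To set the cells against their surroundings, UMIs were summed per mouse for the endothelial cells and for 3 other classes defined by other genes, all with at most 1 UMI of the endothelial selection genes. Contractile-gene cells (at least 10 UMIs from at least 2 of Acta2, Tagln, Rgs5 and Myh11) numbered 393 and 493 in the 2 mice, collagen-gene cells (at least 20 UMIs from at least 3 of Col1a1, Col1a2, Col3a1 and Dcn) 8450 and 10131, and Krt5/Krt14 cells (at least 1% of UMIs from these keratins) 209 and 155. The contractile and collagen rules also required Krt5 plus Krt14 under 0.1% of UMIs, and the collagen rule required under 10 UMIs of the contractile genes. The 14 genes used in the 4 rules were left out of the tests. The contractile rule drew a mixture: the cluster with most of its cells held 25.7% of them, and the collagen rule takes in cells that hold free collagen RNA. Stricter classes were therefore set beside them after these values were seen. Rgs5-high cells were contractile-gene cells with at least 3 Rgs5 UMIs and under 1% of UMIs from the 4 collagen-rule genes. They numbered 52 and 89, with 97.9% of them in 1 cluster. Collagen-rich cells were collagen-gene cells with at least 1% of UMIs from the same 4 genes, and numbered 6096 and 6258. The 3 comparisons share the same 2 endothelial sums, so they are not independent of each other. The test was edgeR's quasi-likelihood test over 13346 genes, with Benjamini-Hochberg adjustment, and a gene was called at an adjusted p under 0.01 and a log2 fold change over 1 in either direction.

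Against contractile-gene cells, 716 genes (5.36% of those tested) were higher and 284 (2.13%) lower in endothelial cells. With the mouse as a replicate block, the lower count was 467. Against the Rgs5-high cells the counts were 389 higher and 414 lower, and the excess of higher genes was not seen there. Against collagen-gene cells 825 genes (6.18%) were higher and 222 (1.66%) lower, or 434 lower with the mouse as a block, and against collagen-rich cells 821 were higher and 621 lower. Against Krt5/Krt14 cells 1258 (9.43%) were higher and 771 (5.78%) lower. From the 139 cells, chosen after these values were seen, the counts were 1060 and 648, 1155 and 662, and 1366 and 982 over 13507 genes, in the order given, and the median log2 fold changes of all genes were -0.13, -0.16 and -0.04 instead of -0.03, -0.08 and 0.06. Of the 177 differences of named genes, 161 kept their call there, 13 lost it, 0 reversed and the rest were not tested. Calls for identity genes (junctions, receptors, transcription factors) follow from a choice of cells on endothelial genes, so their counts are a description.

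Among the genes most above contractile-gene cells, Tmem252, Nr5a2, Gimap1, Esm1 and Robo4 had 0 UMIs in those cells, which puts Tmem252 at least 364-fold and Robo4, a guidance receptor of quiescent vessels, at least 253-fold higher. Above Krt5/Krt14 cells, Selp was at least 418-fold, Gpihbp1 at least 400-fold and Vwf at least 201-fold higher. On the lower side, the smooth muscle actin Actg2 (0 and 1.08 CPM) was below contractile-gene cells (92.1 and 93.4) by -7.04 ± 0.536 (adjusted p = 7.5e-05). Sox9, a transcription factor of hair follicle stem cells, had 2 UMIs in all endothelial cells and was below Krt5/Krt14 cells by -8.31 ± 0.517 (adjusted p = 7.19e-06). Fgf7, a fibroblast growth factor for keratinocytes, stood at 15.2 and 20.4 CPM against 89.6 and 115 in collagen-gene cells, a difference of -2.51 ± 0.265 (adjusted p = 0.000175).

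Receptors for VEGF, angiopoietin and guidance cues were higher in nearly the whole list: 17 of 20 against contractile-gene cells, 18 against collagen-gene cells and 18 against Krt5/Krt14 cells, and 0 were lower in any, also by DESeq2 or at an unadjusted p under 0.05 in edgeR (median log2 fold changes 4.18, 5.11 and 7.93). Among all genes, 5.36%, 6.18% and 9.43% were higher and 2.13%, 1.66% and 5.78% lower in the same order. Flt1, a decoy and signalling receptor for VEGF-A, stood at 994 and 971 CPM, against 6.05 and 16 in contractile-gene cells and 1.9 and 1.82 in collagen-gene cells. The 2 endothelial values lay far above every comparator, with log2 fold changes of 6.46 ± 0.378 (adjusted p = 8.81e-06) and 8.99 ± 0.411 (adjusted p = 1.07e-06). Plvap (819 and 613) and Ptprb (678 and 699) were likewise called in all 3 comparisons. Against Rgs5-high cells the Flt1 difference was 3.62, since these held 62.5 and 87.1.

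Endothelial transcription factors were higher for 21 of 28 tested genes against contractile-gene cells, 25 against collagen-gene cells and 20 against Krt5/Krt14 cells, and lower for 0, also by DESeq2 or at an unadjusted p under 0.05 in edgeR (medians 3.42, 4.75 and 5.46). The background over all genes was 5.36%, 6.18% and 9.43% higher and 2.13%, 1.66% and 5.78% lower. Against Rgs5-high cells 12 of 25 were higher and 1 lower, with a median of 1.67, while from the 139 cells 25 of 28 were above contractile-gene cells. Fli1, an ETS factor, stood at 393 and 390 CPM and was higher by 6.01 ± 0.442 (adjusted p = 3.28e-05) than in contractile-gene cells. Erg, its close relative, stood at 169 and 145 and had 0 UMIs in Krt5/Krt14 cells. Mef2c, a factor that vessels and muscle share, stood at 407 and 419, close to the 449 and 633 of Rgs5-high cells. Its difference from contractile-gene cells, 1.03 ± 0.239, was not called (adjusted p = 0.0182), whereas it was 2.88 ± 0.25 above collagen-gene cells (adjusted p = 5.02e-05). Klf2 (359 and 510) was higher by 1.93 ± 0.258 against contractile-gene cells (adjusted p = 0.000901), a call lost, at 1.66, without the contractile-gene cells of mouse 2.

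Junction and adhesion genes were higher for 10 of 18 against contractile-gene cells, 13 against collagen-gene cells and 12 against Krt5/Krt14 cells. Of all genes, 5.36%, 6.18% and 9.43% were higher in that order. Emcn, Cd93 and Cldn5 led the list. The connexin Gja1 was the exception: at 401 and 328 CPM it was below the 1933 and 1452 of Krt5/Krt14 cells by -2.40 ± 0.221 (adjusted p = 6.01e-05). Esam, an adhesion molecule, stood at 272 and 266 and at 180 and 180 in Rgs5-high cells, a difference of 0.53 that was not called (adjusted p = 0.296).

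In the Notch list, 2 of 14 genes were higher and 1 lower against contractile-gene cells, 4 and 0 against collagen-gene cells (edgeR, with 1 lower at an unadjusted p under 0.05 and 0 by DESeq2), and 3 and 1 against Krt5/Krt14 cells. The shares over all genes were 5.36%, 6.18% and 9.43% higher and 2.13%, 1.66% and 5.78% lower. The balance turned against Rgs5-high cells, with 1 higher and 4 lower, and against collagen-rich cells 7 were higher and 1 lower. From the 139 cells, 4 were above and 1 below contractile-gene cells. The ligand Dll4 stood at only 36.1 and 32.3 CPM, but at 0.233 and 0.145 in contractile-gene cells (7.55 ± 0.667, adjusted p = 0.000156). Notch4, an endothelial Notch receptor, stood at 22.8 and 40.9 and was higher by 5.92 ± 0.646 than in collagen-gene cells (adjusted p = 0.000218), a call that was lost, at 5.39, without the endothelial cells of mouse 2. Notch3, the mural receptor, was lower than in contractile-gene cells by -1.76 ± 0.314 (adjusted p = 0.00472), a call lost on leaving out any of the 4 sums compared (-1.58 to -2.15), and by -4.76 against Rgs5-high cells, where it stood at 821 and 703 against 22.8 and 33.3. The Notch target Hes1 (188 and 135) and the receptor Notch1 (120 and 190) were not called in any of the 3 comparisons.

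BMP and TGF-beta genes were higher in part. Of 16 genes, 5 were higher against contractile-gene cells, 4 against collagen-gene cells and 7 against Krt5/Krt14 cells, and 1 was lower against the last. The shares over all genes were 5.36%, 6.18% and 9.43% higher, and 5.78% lower against the last. From the 139 cells, 2 were also lower against contractile-gene cells and 2 against collagen-gene cells. Eng, the co-receptor endoglin, stood at 409 and 402 CPM and was higher by 3.92 ± 0.214 (adjusted p = 5.23e-06), 3.44 ± 0.204 (adjusted p = 5.24e-06) and 8.13 ± 0.341 (adjusted p = 3.51e-06) in the order given. Bmpr2, a BMP receptor (386 and 354), was higher by 1.30 ± 0.18 than in contractile-gene cells (adjusted p = 0.00108), and this call was lost without the contractile-gene cells of either mouse, at 1.24 and 1.36. The target Id1 (207 and 137) was higher by 1.74 ± 0.261 (adjusted p = 0.00175), and it was 1.41 without the endothelial cells of mouse 1, 1.57 without the contractile-gene cells of mouse 2 and 1.25 against Rgs5-high cells (adjusted p = 0.0217), none of them called.

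Among 37 secreted ligands tested, 8 were higher and 4 lower against contractile-gene cells, 8 and 4 against collagen-gene cells, and 11 and 3 against Krt5/Krt14 cells, while the list's medians were -0.12, -0.34 and 1.43. The shares over all genes were 5.36%, 6.18% and 9.43% higher and 2.13%, 1.66% and 5.78% lower. Against Rgs5-high cells 5 of 34 were higher and 4 lower, against collagen-rich cells 9 and 8, and from the 139 cells 11 and 7 against collagen-gene cells. Cxcl12 (chr6:117168535-117181367, plus strand) was the most abundant, at 1135 and 1086 CPM, against 121 and 123 in contractile-gene cells, 148 and 142 in collagen-gene cells, and 249 and 102 in Krt5/Krt14 cells. The endothelial values did not overlap with any class, with differences of 3.20 ± 0.369 (adjusted p = 0.000392), 2.88 ± 0.362 (adjusted p = 0.00054) and 2.48 ± 0.363 (adjusted p = 0.000877). All 3 were called under every alternative, including Rgs5-high cells at 1.85 (adjusted p = 0.00973). The level was uneven within the endothelium, at 4029 in the Esm1/Cxcl12-led cells against 534 in the other endothelial cells. The Esm1/Cxcl12-led cells held 368 and 588 Cxcl12 UMIs in the 2 mice and the capillary-like cells 59 and 172. The venous-like cells held only 7 and 14 and the lymphatic-like cells 2 and 11, so the excess was not shared by all vessels.

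Kitl, the stem cell factor that supports melanocytes and mast cells, stood at 515 and 496 CPM. It was 157 and 165 in contractile-gene cells, 112 and 200 in collagen-gene cells and 27.5 and 35.9 in Krt5/Krt14 cells. It was higher than in Krt5/Krt14 cells by 3.83 ± 0.295 (adjusted p = 2.09e-05) and than in contractile-gene cells by 1.67 ± 0.255 (adjusted p = 0.00194). The second call was lost on leaving out any of the 4 sums compared, at values of 1.63 to 1.67, and against Rgs5-high cells (383 and 303) the difference was 0.52 (adjusted p = 0.295). Blood vessel subclusters shared Kitl at 855 to 953, whereas lymphatic-like cells had 67.1.

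Other ligands of vessels were chosen after their values were seen. Pdgfb, which recruits mural cells, stood at 125 and 160 CPM against 18.8 and 11.3 in contractile-gene cells and 0.624 and 0.866 in collagen-gene cells, higher by 3.30 ± 0.297 (adjusted p = 9.45e-05) and 7.54 ± 0.338 (adjusted p = 9.22e-07). Edn1, the vasoconstrictor endothelin 1, stood at 171 and 174 and was higher than in contractile-gene cells by 3.81 ± 0.298 (adjusted p = 4.59e-05). Within the endothelium, Pdgfb was 417 in Esm1/Cxcl12-led cells and 301 in capillary-like cells but 52.7 in venous-like cells, while Edn1 was 324, 33.4 and 342. Bmp6 stood at 30.4 in mouse 1 and 129 in mouse 2, and at 368 in capillary-like cells.

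Ligands lower than in 1 or more of the other classes included Pdgfa, Inhba and Sfrp1. Pdgfa, a ligand for fibroblast PDGF receptors, stood at 17.1 and 26.9 CPM against 130 and 128 in contractile-gene cells, lower by -2.46 ± 0.25 (adjusted p = 0.000192). Inhba, an activin subunit, had 3 UMIs in all 191 cells and was lower than in contractile-gene cells by -4.02 ± 0.589 (adjusted p = 0.00151), a call lost without the endothelial cells of mouse 2 (-3.19). The secreted Wnt inhibitor Sfrp1 stood at 30.4 and 81.7 against 242 and 266 in collagen-gene cells, lower by -2.13 ± 0.335 (adjusted p = 0.00219), a call lost, at -2.22, in a fit of the compared sums alone. The BMP antagonists Nog and Grem1, named after their values were seen, had 0 UMIs in the endothelial cells. Igf1, the insulin-like growth factor that dermal cells are known to make, stood at 181 and 151 CPM, next to 285 and 301 in collagen-gene cells (difference -0.88, adjusted p = 0.017) and 116 and 104 in contractile-gene cells, and was also chosen after its values were seen. Fgf10, a fibroblast growth factor, stood at 11.4 and 71, and at 12.5 and 17.5 in the 139 cells.

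The study concerns retinoic acid, the signal that retinoid receptors read. Of 21 genes of the retinoid list tested, 0 were higher and 2 lower against contractile-gene cells, 1 and 3 against collagen-gene cells, and 1 and 5 against Krt5/Krt14 cells (medians -0.25, -0.7 and -0.67). Over all genes, 5.36%, 6.18% and 9.43% were higher and 2.13%, 1.66% and 5.78% lower, so that with 21 genes the counts of higher members lay near the background. Against collagen-rich cells 0 were higher and 5 lower, and from the 139 cells 1 and 4, 1 and 6, and 1 and 3 in the 3 comparisons. At an unadjusted p under 0.05, edgeR had 3 higher and 6 lower against contractile-gene cells, and DESeq2 called 1 and 3. Fabp5, a fatty acid-binding protein that can carry retinoic acid, was the most abundant at 2022 and 1111 CPM and was not called in any comparison. Its level was 3327 in the hair-matrix-gene subcluster, 1944 in capillary-like and 1359 in venous-like cells.

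Receptors for retinoic acid were measured at low levels. Rara stood at 36.1 and 50.5 CPM, Rarg at 47.5 and 25.8, Rxra at 32.3 and 23.7 and Rxrb at 19 and 25.8, while Rarb was at 1.9 and 12.9 and Rxrg at 0. Rarg was lower than in Krt5/Krt14 cells (66.8 and 99.4) by -1.42 ± 0.307 (adjusted p = 0.00759), and this call was lost without the endothelial cells of mouse 2 (-1.0) or either Krt5/Krt14 sum (-1.7 and -1.18). It was also lost in a fit of the compared sums alone (-1.42), at 8 or more selection-gene UMIs (-1.29), at a keratin limit of 0.05% (-1.43) and from the 139 cells (-1.22). Rara rested on 19 and 47 UMIs and Rarg on 25 and 24, so small differences were not detectable at this depth.

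Among binding proteins and enzymes, Dhrs3, which returns retinaldehyde to retinol, was the 1 list member called higher than in collagen-gene cells. It stood at 64.6 and 96.8 CPM against 23.4 and 37.5, a difference of 1.40 ± 0.276 (adjusted p = 0.00767), and lost its call without the endothelial cells of mouse 2 (1.04), without the collagen-gene cells of mouse 1 (1.13), in a fit of the compared sums alone and against collagen-rich cells (1.19, adjusted p = 0.0271).

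Enzymes that make or break down retinoic acid ranged from 0 UMIs to 35 CPM over both mice. The retinaldehyde dehydrogenase Aldh1a1 stood at 3.8 and 32.3 CPM, and at 0 and 13.6 in the 139 cells, and the breakdown enzyme Cyp26b1 at 1.9 and 11.8. Aldh1a2 had 1 UMI in all endothelial cells, Cyp26a1 had 0 and Cyp26c1 had 1. Aldh1a3 stood at 74.1 and 12.9 CPM, but at 12.5 and 11.6 in the 139 cells, and was 87.6 in the hair-matrix-gene subcluster. Dhrs9, a retinol dehydrogenase, stood at 5.7 and 11.8 against 159 and 112 in Krt5/Krt14 cells, lower by -4.0 ± 0.413 (adjusted p = 0.000122), and Cyp1b1 at 5.7 and 4.3 against 50.4 and 41.5, lower by -3.41 ± 0.418 (adjusted p = 0.000319). These 2 calls held under every alternative. The retinoic acid-binding protein Crabp1 had 4 UMIs, all in mouse 1, against 131 and 99.9 CPM in contractile-gene cells (-5.34 ± 0.756, adjusted p = 0.00126). This call was lost without the endothelial cells of mouse 2 (-3.94) and against Rgs5-high cells, at -2.01 (adjusted p = 0.36).

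**Figure D4:**
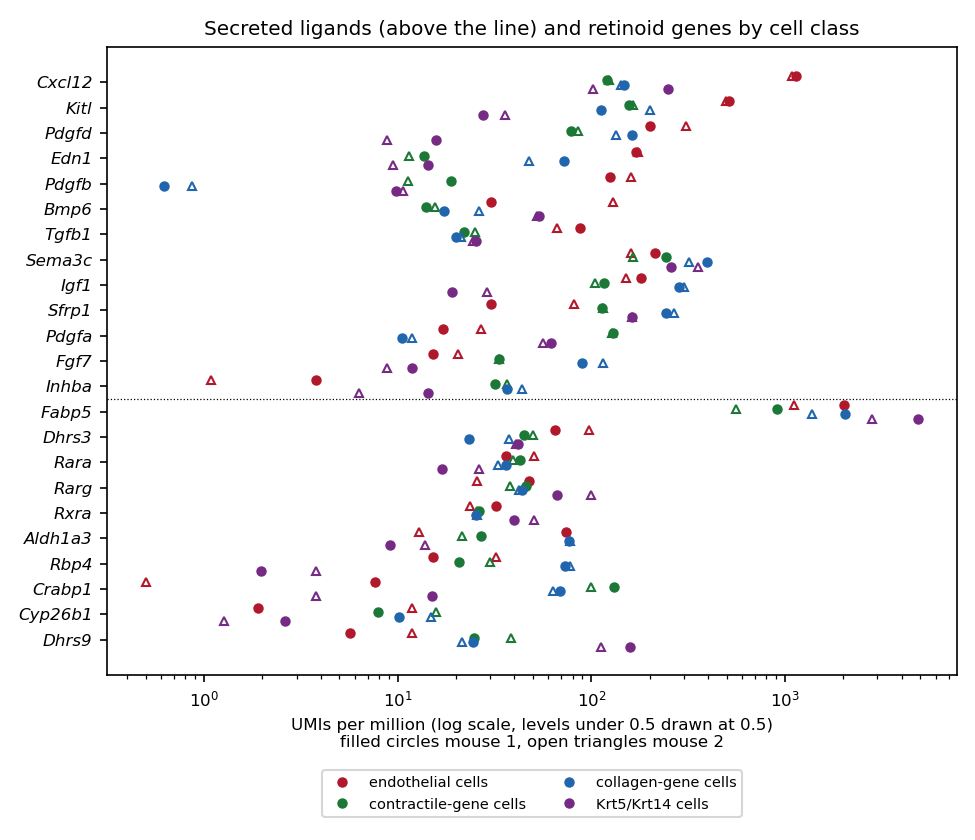
Level in CPM (log x axis, levels under 0.5 drawn at 0.5) of 13 secreted ligands, above the dotted line, and 10 retinoid genes, below it, in endothelial (red), contractile-gene (green), collagen-gene (blue) and Krt5/Krt14 cells (purple), filled circles for mouse 1 and open triangles for mouse 2. Cxcl12 (1135 and 1086) lies right of all other classes, while the endothelial points of Dhrs9 (5.7 and 11.8) lie left of all others.

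Lipid uptake and caveolar genes were higher for 10 of 15 against contractile-gene cells, 11 against collagen-gene cells and 13 against Krt5/Krt14 cells (medians 2.47, 4.2 and 5.1), but for 6 against Rgs5-high cells. Aqp1, a water channel, stood at 901 and 777 CPM against 17 and 14.2 in contractile-gene cells (5.77 ± 0.305, adjusted p = 4.33e-06). Fabp4 was the most abundant at 6076 and 6533, against 330 and 498 in contractile-gene cells and 144 and 304 in collagen-gene cells. Its difference from contractile-gene cells, 3.95 ± 0.488 (adjusted p = 0.000577), shrank to 1.31 (adjusted p = 0.109) against Rgs5-high cells, which held 2204 CPM in mouse 1. Lpl stood at 255 and 503 and was called only against Krt5/Krt14 cells (2.22 ± 0.32, adjusted p = 0.000812).

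Genes of blood flow, clotting and vascular tone were higher for 11 of 17 against contractile-gene cells, 10 against collagen-gene cells and 12 against Krt5/Krt14 cells, with 1, 1 and 0 lower (the 0 also by DESeq2 or at an unadjusted p under 0.05 in edgeR). All genes together gave 5.36%, 6.18% and 9.43% higher and 2.13%, 1.66% and 5.78% lower. Against Rgs5-high cells 7 of 16 were higher and 1 lower, and against collagen-rich cells 5 and 3. Ramp2, part of the adrenomedullin receptor, stood at 460 and 394 CPM and was higher by 2.54 ± 0.289 (adjusted p = 0.000372) than in contractile-gene cells and by 5.04 than in Rgs5-high cells. Ptgis, prostacyclin synthase, was the lower gene: it stood at 17.1 and 17.2 against 114 and 113 in contractile-gene cells (-2.70 ± 0.273, adjusted p = 0.000184). Against Rgs5-high cells, at 3.91 and 3.11, its direction turned, at 2.31 (adjusted p = 0.0248).

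Of 19 basement membrane genes, 14 were higher against Krt5/Krt14 cells, 2 against contractile-gene cells and 3 against collagen-gene cells. Over all genes 9.43%, 5.36% and 6.18% were higher in that order, so the last 2 counts lay nearer to the background. Whether the list counts differ from each other was not tested, and from the 139 cells they were 14, 4 and 9. The 2 genes above contractile-gene cells were Sparcl1, a SPARC-related matrix protein, and Lama4, a laminin chain of vessels. Sparcl1 stood at 675 and 761 CPM against 377 and 284 (1.14 ± 0.234, adjusted p = 0.00995), but at 2103 and 1553 in Rgs5-high cells, where the direction turned, at -1.39 (adjusted p = 0.00439). Its call was also lost on leaving out any of the 4 sums compared (0.92 to 1.38). Lama4 stood at 232 and 386 against 84.2 and 88.7 (1.88 ± 0.265, adjusted p = 0.00124), a call lost without either contractile-gene sum (1.86 and 1.88) and against Rgs5-high cells, at 0.6 (adjusted p = 0.261). In all, 2 genes of the list were higher and 4 lower against Rgs5-high cells. Col4a1 stood at 829 and 1167 CPM, against 731 and 910 in contractile-gene cells, and 55 and 82.4 in Krt5/Krt14 cells, higher than the latter by 3.71 ± 0.302 (adjusted p = 2.94e-05). Col18a1, the endostatin precursor, was lower than in contractile-gene cells (95 and 134 against 308 and 350), by -1.48 ± 0.24 (adjusted p = 0.00273), a call lost without the endothelial cells of mouse 1 (-1.29) or either contractile-gene sum (-1.55 and -1.41).

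Genes of antigen presentation and leukocyte contact were higher for 12 of 23 against contractile-gene cells, 5 against collagen-gene cells and 8 against Krt5/Krt14 cells, and lower for 0 by edgeR. The background over all genes was 5.36%, 6.18% and 9.43% higher and 2.13%, 1.66% and 5.78% lower in the same order. At an unadjusted p under 0.05, 0, 1 and 2 list members were lower, and DESeq2 called 0, 0 and 1. H2-D1, a class I molecule whose counts can share reads with related genes, stood at 910 and 1020 CPM against 218 and 219 in contractile-gene cells (2.17 ± 0.205, adjusted p = 0.000127) and was not called against Krt5/Krt14 cells (0.18 ± 0.197, adjusted p = 0.555). Against collagen-gene cells, Selp (10.83 ± 0.333, adjusted p = 4.83e-07) and Sele (7.73 ± 0.707, adjusted p = 0.000135) were called under every alternative. H2-D1 (1.29 ± 0.199, adjusted p = 0.00201) lost its call there under 5 alternatives. Selp, Sele, Ackr1, Vcam1 and Icam1 are also in the venous list, so their part of the counts is a description. Ly6a stood at 808 and 1081 but at 1973 and 2449 in collagen-rich cells. The adhesion molecule Icam1 stood at 268 and 124, with 732 in venous-like cells.

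Immediate early and stress genes, which tissue digestion is known to raise, were high throughout: Jun stood at 1188 and 1205 and Fos at 901 and 1456 CPM, neither of them called. Of 15 genes, 3 were higher against contractile-gene cells (Zfp36, Atf3 and Nr4a1), 2 against collagen-gene cells, and 2 lower against Krt5/Krt14 cells. The matching shares over all genes were 5.36% higher, 6.18% higher and 5.78% lower. Zfp36, Atf3 and Nr4a1 turned against Rgs5-high cells, at -0.03, -0.32 and -0.37, none of them called. They were also lost on leaving out single sums: Zfp36 (1.05 to 1.46) and Nr4a1 (1.18 to 1.37) without any of the 4, and Atf3 (0.96 to 1.34) without the endothelial cells of mouse 2 or either contractile-gene sum, and Atf3 also in a fit of the compared sums alone (1.25).

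Cell cycle genes gave 0 calls in any comparison for 22 genes by edgeR and by DESeq2 when all 191 cells were used. Of all genes, edgeR called 5.36%, 6.18% and 9.43% higher and 2.13%, 1.66% and 5.78% lower in the 3 comparisons. At an unadjusted p under 0.05, edgeR had 1 list member higher against contractile-gene cells, 4 lower against collagen-gene cells, and 1 in each direction against Krt5/Krt14 cells. Mki67 stood at 192 CPM in mouse 1 and 80.6 in mouse 2, and Top2a at 319 and 86, but in the 139 cells they stood at 37.4 and 54.4 and at 70.7 and 73.8. A UMI of both genes was found in 8 of the 139 cells and in 16 of the 52 others, which were also deeper. From the 139 cells, 3 of the 22 genes were below contractile-gene cells, 10 below collagen-gene cells and 2 below Krt5/Krt14 cells, and 0 were above. Mki67 was then lower than in collagen-gene cells by -1.86 ± 0.268 and Top2a by -1.98 ± 0.329. The leading genes of the 29 cells left out with the other 23 included hair follicle and cell cycle genes, while the other classes kept their cycling cells. The lower counts and differences from the 139 cells thus follow in part from this choice and are a description, not a test.

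**Figure D5:**
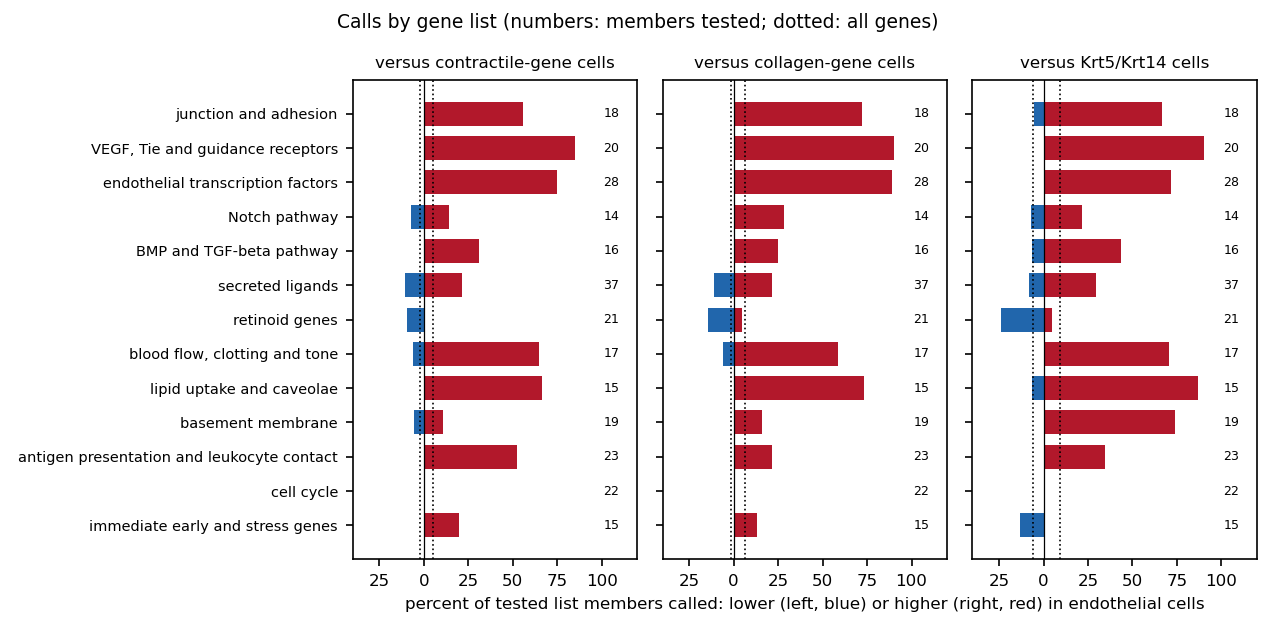
For each of 13 gene lists and each of the 3 comparisons, the bars give the percent of tested members called higher (right, red) or lower (left, blue) in endothelial cells, with the number of members tested at the right and the percent over all 13346 genes as dotted lines. Receptors and transcription factors lie far beyond the dotted lines in each panel, retinoid genes have more lower than higher calls (2, 3 and 5 of 21 lower), and the cell cycle list shows no bar.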

How the data were processed

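The authors deposited 10x Genomics 3′ v3 UMI counts per gene and cell barcode, made with Cell Ranger (7.0.1 in the submitters' processing notes, 7.0.0 in the file headers) on mm10, without later removal of free RNA or doublets. These counts were used as deposited. Cells were kept at 500 genes, 1000 UMIs and under 10% mitochondrial UMIs. The endothelial rule, the comparator classes and the gene lists were chosen with earlier results of these data known. Named genes were the 4 selection genes, the 15 with the largest ratio to other cells, the 10 called genes at each end of each comparison, the called and uncalled list members of highest endothelial level, all retinoid genes and subcluster leaders. Results for some named genes are not reported here. Others are said to be chosen after their values were seen.

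Clustering used scanpy 1.11.5, for the endothelial cells with 1500 variable genes, 15 components, 15 neighbours and Leiden resolution 0.6. All kept cells were clustered with 2000 variable genes, 30 components, 15 neighbours and Leiden resolution 1.0. Subcluster names required marker lists. Scrublet doublets stayed in, with an alternative without them. The 8 sums of 4 classes in 2 mice were fitted together, with no covariate, in edgeR 4.0.16 (quasi-likelihood test, Benjamini-Hochberg adjustment, TMM scaling, low-count filter), which was tested on simulated data. A call needed an adjusted p under 0.01 and a log2 fold change over 1. Sums of 1 mouse come from the same animal. Their deviations correlated at 0.0803 to 0.448 over 13346 genes, and a fit with the mouse as a replicate block was run. Each mouse is 1 replicate. Alternatives included DESeq2 1.42.0 and leaving out each sum. Positions are from GENCODE release M21, in which 432 of 432 gene identifiers matched.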

Additional observations from a re-analysis of the deposited data

How the results depend on the processing

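With 2 sums a class, the counts of called genes were the least stable values. Against contractile-gene cells, leaving out 1 sum gave 343 to 522 higher and 141 to 145 lower genes: without the endothelial cells of mouse 2 there were 350 and 145, without the contractile-gene cells of mouse 1 346 and 141, and without those of mouse 2 343 and 144, while without the endothelial cells of mouse 1 the lower count was 141. Against collagen-gene cells the ranges were 439 (without the endothelial cells of mouse 2, with 135 lower) to 721 higher and 65 (without the endothelial cells of mouse 1) to 173 lower, with 122 lower without the collagen-gene cells of mouse 1. Against Krt5/Krt14 cells they were 628 to 1123 higher and 321 to 561 lower, with 650 and 321 without the endothelial cells of mouse 2, 628 and 466 without the Krt5/Krt14 cells of mouse 1, and 629 and 491 without those of mouse 2. These fits have fewer samples. The replicate block (pairing by mouse) gave 467 lower genes against contractile-gene and 434 against collagen-gene cells, and the other counts stayed within 1.5 times. DESeq2 gave 439 and 364 lower, and no filter on low counts 832 and 775. An adjusted p under 0.05 with no fold limit, which is a looser rule, gave 1237 higher and 832 lower, 1246 and 598, and 2088 and 1539 in the 3 comparisons. Fitting the compared sums alone gave 92 lower against collagen-gene cells. The stricter comparator classes, chosen after seeing the data, gave 389 higher against Rgs5-high and 621 lower against collagen-rich cells, and moved the share of higher calls from 71.6% to 48.4% and from 78.8% to 56.9%. Without the hair-matrix-gene and fibroblast-gene subclusters, also chosen after seeing the data, 648 genes were lower against contractile-gene and 662 against collagen-gene cells. The share of higher calls was then 62.1% and 63.6%. The stricter classes reversed 5 differences from contractile-gene cells: Ptgis to 2.31, Sparcl1 to -1.39, Zfp36 to -0.03, Atf3 to -0.32 and Nr4a1 to -0.37. Of 2823 alternative values for 177 named differences, 2581 kept direction and call, 237 lost the call and 5 reversed, and 107 differences were called throughout. The share of endothelial cells was 0.415% and 0.625% at 8 or more selection-gene UMIs, and in mouse 2 it was 1.01% at 1000 genes and under 5% mitochondrial UMIs and 0.999% by cluster membership. The cause of the moved values was not tested beyond what each setting itself changes.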
